A study of Mus musculus with 49 samples.

Results

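Ankle and blood leukocytes of healthy mice were compared at day 0 of an arthritis time course. The data were 7 arrays, 4 of whole ankle and 3 of peripheral blood leukocytes, out of 49 in a series that followed joints and blood through arthritis caused by transfer of serum from K/BxN mice. K/BxN serum carries autoantibodies that inflame the joints of healthy recipients. The 7 arrays were chosen by their labels, which give the tissue and day 0, and no measured value entered the choice. Ankle came from male B6 mice of 6 weeks and is labelled as a whole organ of mixed cells, with RNA amplified in 2 rounds of in vitro transcription. Blood came from male B6 mice of the same age after lysis of red cells, and 75 ng of leukocyte RNA was amplified with the MessageAmp kit. Replicates 2 and 3 of blood are described as amplified repeatedly, and replicate 1 is not. No allele or treatment is named for either tissue, and the shared features are the strain, sex and age. The ankle descriptions count day 0 from the first injection of serum, and the labels do not say whether these mice had been injected by then. The description of ankle replicate 2 opens with another short name, and its title and time label place it at day 0.

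A mouse ankle holds bone, cartilage, ligament and tendon, the synovial lining with its fibroblasts and macrophages, and the skin, fat, muscle, vessels and nerves around them. Leukocytes of mouse blood are mainly B and T lymphocytes, with neutrophils, monocytes and natural killer cells, and their shared markers are the signalling proteins of haematopoietic cells. In bulk samples such as these, fewer cells of a type and less RNA per cell cannot be told apart. Tissue and preparation cannot be told apart either. The ankle descriptions name extraction with SDS and urea, although the protocol field names Trizol for both tissues.

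Median intensities of the 7 arrays lay between 58.6 and 62.7, and their number limits the precision of every value. Ankle arrays correlated with each other at r from 0.930 to 0.992, blood arrays at 0.985 to 0.992, and ankle with blood arrays at 0.804 to 0.841. The 3′ probe set for beta-actin exceeded the 5′ one, a gap that widens as RNA gets shorter, by 2.73 to 3.50 log2 units in ankle and by 1.83 to 2.58 in blood, without overlap. For Gapdh the same gap was 3.48 to 4.32 in ankle and 3.74 to 3.87 in blood, so the tissues overlapped by this control. Ankle replicate 1 held liver transcripts, described below with the genes that varied between arrays. Levels are log2 intensities, and differences are ankle minus blood ± the standard error from limma. The negative control level, the 95th percentile of 19 bacterial and yeast control probe sets, was 5.64, and a group mean under it is called close to background, which makes a difference from it at best a lower bound in size. A stricter level that also counts antisense controls was 6.73. A fold is given only where both group means lay above it, and not for every such gene. The labels use the term biological replicate for blood and not for ankle, so p-values measure the spread between these arrays, which may be technical for ankle.

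In ankle 1629 of 8251 genes were higher than in blood (19.7%) and 1451 were lower (17.6%), at an adjusted p under 0.05 in limma. Counts of the gene lists below are read against these shares. Shares higher in ankle near 19.7% included those of lymphatic endothelium (25%) and liver (13.6%). Shares lower in ankle near 17.6% included those of muscle regulators (16.7%), neutrophil granule precursors (25%), B cell precursors (14.3%) and cytokines (23.8%). At a difference of at least 4-fold, 284 genes were higher (3.44%) and 207 lower (2.51%). Blood was close to background for 143 of the 284 and ankle for 84 of the 207. Counted without a test, 3539 genes (42.9%) had groups that did not overlap, and all 284 and all 207 were among them. When the fit also held the 3′ to 5′ gap of beta-actin, 910 genes were higher and 673 lower. In that fit 281 of the 284 and 186 of the 207 were still called at the adjusted p alone, and 256 and 152 at 4-fold. Of the 284, 83 had a further probe set and for 70 of these every further probe set differed in the same direction, against 40 of 54 for the 207. That count goes by sign alone. Of the 198 called genes named here, 43 had another probe set, and for 26 of these at least 1 other probe set differed by under 30% of the printed difference or in the opposite direction, a limit chosen after the values were seen. For 19 of the 198 the call was lost when some 1 array was left out, and both are stated beside the genes. Where both means were above background, in 4835 genes, the 95% interval of the difference lay within a change of 1 log2 unit either way for 2900.

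**Figure D1:**
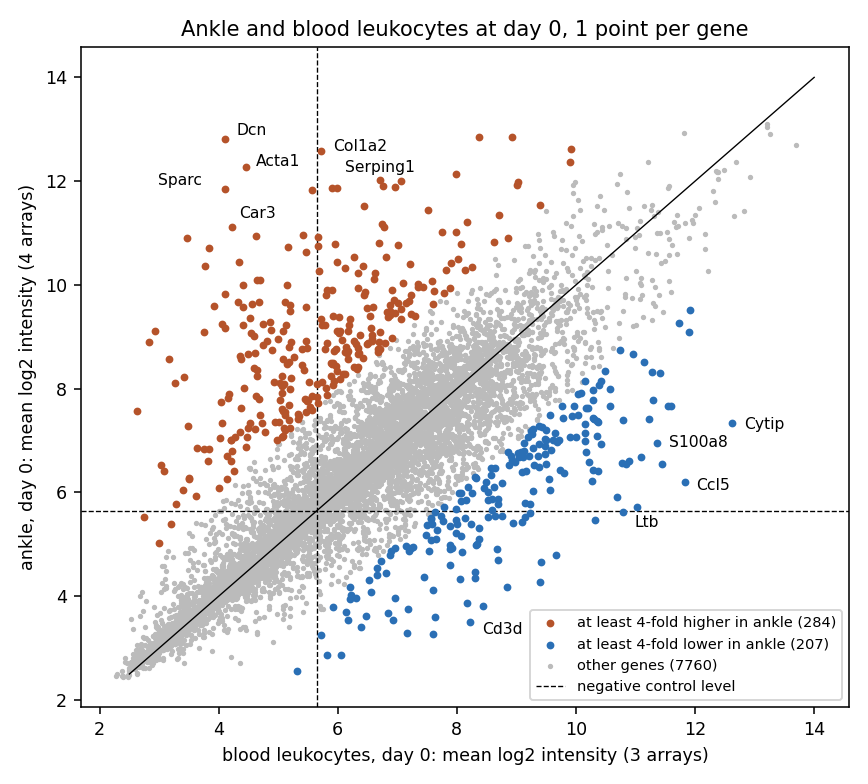
Mean log2 intensity of each gene in blood leukocytes (horizontal, 3 arrays) and in ankle (vertical, 4 arrays) at day 0, with the line of equality and the negative control level of 5.64 (dashed). The 284 genes higher in ankle by at least 4-fold reach a difference of 8.71 (Dcn), and the 207 lower genes reach -5.63 (Ccl5).

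Connective tissue genes were among the largest differences on the ankle side. Decorin (Dcn), a proteoglycan that binds collagen fibrils, measured 12.83, 12.64, 12.90 and 12.90 in ankle, against 4.04, 4.21 and 4.08 in blood. Its difference of 8.71 ± 0.15 (adjusted p = 2.8e-10) was the largest of all 8251 genes, with blood close to background. Sparc, which encodes a collagen-binding protein of matrix-forming cells, measured 11.20, 11.90, 12.28 and 12.01 in ankle, against 4.11, 4.09 and 4.10 in blood (difference 7.75 ± 0.23, adjusted p = 1.17e-08). Every ankle array lay far above every blood array for both genes. Of 37 measured genes for collagens and other matrix proteins, 35 were higher, 0 lower and 2 not called, with a median difference of 3.38, against 0.05 over all genes. Col1a2, a chain of type I collagen, differed by 6.87 ± 0.19 and Col5a2 of type V collagen by 6.11 ± 0.32. Col4a1, a chain of basement membrane collagen, differed by 5.25 ± 0.18, the laminin chain gene Lamb2 by 4.86 ± 0.17 and Serpinh1, the collagen chaperone of the endoplasmic reticulum, by 5.06 ± 0.21. The other probe set of Col1a2 differed by 0.58 only. Among the 12 genes with the largest differences were also Cpe (carboxypeptidase E, 7.43 ± 0.21), Anxa8 (annexin A8, 6.31 ± 0.17), Gsn (gelsolin, which severs actin filaments, 6.26 ± 0.22) and Ccn2 (connective tissue growth factor, 6.18 ± 0.32), all with blood close to background.

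Skeletal muscle genes were also among the largest differences, with Acta1 next after Dcn. Acta1, the actin of skeletal muscle sarcomeres, measured 11.25, 12.26, 12.94 and 12.60 in ankle, against 4.21, 4.68 and 4.47 in blood (difference 7.81 ± 0.34, adjusted p = 7.81e-08). Tnnc2, the calcium-binding troponin C of fast fibres, measured 11.22, 12.16, 12.63 and 12.11 in ankle, against 6.65, 6.85 and 6.62 in blood (5.33 ± 0.28, adjusted p = 2.6e-07), but its other probe set differed by 0.10. Replicate 1 had the lowest of the 4 ankle values in both, and the tissues did not overlap. Of 18 measured genes of the fast sarcomere 13 were higher and 0 lower (median 1.22), among them the fast myosin heavy chain gene Myh1 (6.06 ± 0.45), the light chain gene Myl1 (5.57 ± 0.34), the fast troponin T gene Tnnt3 (4.84 ± 0.26) and Actn3 (alpha-actinin of fast fibres, 2.34 ± 0.21). Of 18 genes for muscle calcium handling and energy 13 were higher and 1 lower (median 1.66). Parvalbumin (Pvalb), which buffers calcium in fast fibres, differed by 3.92 ± 0.22 (15.1-fold), Pgam2 (the phosphoglycerate mutase of muscle) by 4.07 ± 0.24, Ckm (muscle creatine kinase) by 4.55 ± 0.35, with its other probe set at 0.03, and Casq1 (calsequestrin of the sarcoplasmic reticulum) by 1.74 ± 0.25. The lower member, Cox8b, differed by -0.56 ± 0.16, but its other probe set by 0.65, and the call was lost in a fit that left out 1 array. Of 9 genes of slow fibres 2 were higher (22.2%, near the 19.7% of all genes) and 0 lower (median 0.21). The higher ones were the troponin genes Tnnc1 (1.44 ± 0.18) and Tnnt1 (0.63 ± 0.19). The call of Tnnt1 was lost in a fit that left out 1 array, and its other probe set differed by 0.10. Of 12 genes that regulate muscle formation 1 was higher and 2 lower. These were the growth inhibitor myostatin (Mstn, 0.46 ± 0.12), the muscle cadherin gene Cdh15 (-0.86 ± 0.16), and Mef2c (-1.38 ± 0.30), a transcription factor that B and myeloid cells also use. All 3 had ankle close to background. The call of Mstn was lost in a fit that left out 1 array, and the other probe set of Cdh15 differed by -0.22.

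Promoter windows from RefSeq (build GRCm38.p6, 250 bases before to 50 after each gene's start) were searched on both strands for 3 short motifs: CAGCTG, the E-box form bound by muscle-forming bHLH factors, TATAAA, the core of the TATA box, and GAGGAAG, a core form of sites for the myeloid and B cell factor PU.1. A single window was listed for 5264 of the 8251 genes, and genes with several windows or none were left out. CAGCTG was present in 17 of 25 windows (68.0%) of the genes on the fast sarcomere and the muscle calcium and energy lists, a set added after the other results were seen, against 14.6% of all 5264. Among genes at least 4-fold higher in ankle the share was 17.7% (29 of 164), and among those at least 4-fold lower 15.6% (19 of 122). GAGGAAG was present in 20.1% of the higher genes, 23.8% of the lower genes, 20% of the muscle list genes (5 of 25) and 13.9% of all. TATAAA was present in 16.5% of the higher genes, 16.4% of the lower genes, 24% of the muscle list genes (6 of 25) and 11.1% of all. 5 windows are shown with every match in capitals, 3 of muscle genes higher in ankle and 2 of leukocyte genes lower in ankle. These windows were picked by gene name as examples, by no rule, and do not stand for the shares above. They lie at chr8:123894726-123895025 (minus strand, Acta1), chr11:5803747-5804046 (minus strand, Pgam2), chr1:172219846-172220145 (minus strand, Casq1), chr3:90668821-90669120 (plus strand, S100a8) and chr17:35194257-35194556 (plus strand, Ltb).
Acta1: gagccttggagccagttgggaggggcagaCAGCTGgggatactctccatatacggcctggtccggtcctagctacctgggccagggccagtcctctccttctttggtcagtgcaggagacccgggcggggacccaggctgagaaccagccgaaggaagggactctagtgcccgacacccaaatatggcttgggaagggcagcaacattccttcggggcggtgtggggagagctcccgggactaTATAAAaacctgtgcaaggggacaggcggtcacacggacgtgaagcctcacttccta
Pgam2: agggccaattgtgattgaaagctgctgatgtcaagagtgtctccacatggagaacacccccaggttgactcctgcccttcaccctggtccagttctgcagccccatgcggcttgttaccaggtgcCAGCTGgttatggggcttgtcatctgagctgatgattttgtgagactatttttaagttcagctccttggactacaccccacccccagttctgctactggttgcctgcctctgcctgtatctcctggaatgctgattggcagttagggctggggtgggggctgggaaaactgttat
Casq1: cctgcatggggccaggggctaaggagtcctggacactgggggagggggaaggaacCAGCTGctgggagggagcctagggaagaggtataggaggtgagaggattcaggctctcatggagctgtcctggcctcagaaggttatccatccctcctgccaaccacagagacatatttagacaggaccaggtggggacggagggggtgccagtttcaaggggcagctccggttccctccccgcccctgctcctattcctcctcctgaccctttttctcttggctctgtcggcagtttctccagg
S100a8: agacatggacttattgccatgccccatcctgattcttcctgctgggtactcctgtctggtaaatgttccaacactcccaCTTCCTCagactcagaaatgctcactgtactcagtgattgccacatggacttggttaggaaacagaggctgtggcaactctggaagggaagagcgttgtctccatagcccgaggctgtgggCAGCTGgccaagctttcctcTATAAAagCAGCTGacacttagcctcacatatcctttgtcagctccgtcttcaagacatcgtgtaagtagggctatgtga
Ltb: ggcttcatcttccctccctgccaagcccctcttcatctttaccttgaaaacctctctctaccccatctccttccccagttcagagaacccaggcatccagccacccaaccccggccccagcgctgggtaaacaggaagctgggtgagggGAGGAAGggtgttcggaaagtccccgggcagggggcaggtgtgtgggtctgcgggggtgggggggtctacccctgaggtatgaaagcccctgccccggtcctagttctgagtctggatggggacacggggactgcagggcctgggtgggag
Each of the 3 muscle windows holds CAGCTG once and the Acta1 window also TATAAA. The S100a8 window holds CAGCTG at 2 places, TATAAA once and GAGGAAG once on the opposite strand, and the Ltb window holds GAGGAAG once. A match shows letters in the window and nothing about binding.

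Genes of cartilage gave a mixed picture. Cilp2, which encodes a matrix protein related to cartilage intermediate layer protein, measured 12.42, 12.81, 12.99 and 13.14 in ankle, against 8.26, 8.33 and 8.51 in blood (4.47 ± 0.20, 22.2-fold, adjusted p = 7.81e-08). Matn4 (matrilin 4) differed by 4.25 ± 0.23, Chad (chondroadherin) by 1.51 ± 0.22 and Acan (aggrecan, the large proteoglycan of cartilage) by 0.92 ± 0.18. These 4 were the called members of 17 measured, with 0 lower and 13 not called (median 0.09), and 8 of the 17 were close to background in both tissues. The share called higher (23.5%) was near the 19.7% of all genes. Col2a1, the main collagen of cartilage and named here after its values were seen, measured 5.63, 4.69, 5.02 and 5.23 in ankle, against 4.92, 5.21 and 5.15 in blood (0.05 ± 0.21, adjusted p = 0.887). By this probe set the defining collagen of cartilage was close to background in healthy ankle. Of 7 measured bone genes 4 were higher and 0 lower (median 0.56), and 5 were close to background in both tissues. The parathyroid hormone receptor gene Pth1r differed by 1.47 ± 0.17, the osteomodulin gene Omd by 0.97 ± 0.19, alkaline phosphatase (Alpl) by 0.58 ± 0.17 and the osteoblast transcription factor gene Dlx5 by 0.56 ± 0.17. The calls of Alpl and Dlx5 were each lost in a fit that left out 1 array. Tendon and ligament genes were higher in 5 of 6 (median 0.93), led by fibromodulin (Fmod), at 10.40, 10.67, 11.04 and 10.90 in ankle, against 5.46, 5.82 and 5.73 in blood (5.08 ± 0.19). Mfap5, of elastic microfibrils, differed by 5.07 ± 0.21. The other probe sets of Fmod and Mfap5 differed by 0.16 and 0.26. Scx (scleraxis, the transcription factor of tendon cells) differed by 0.90 ± 0.17.

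**Figure D2:**
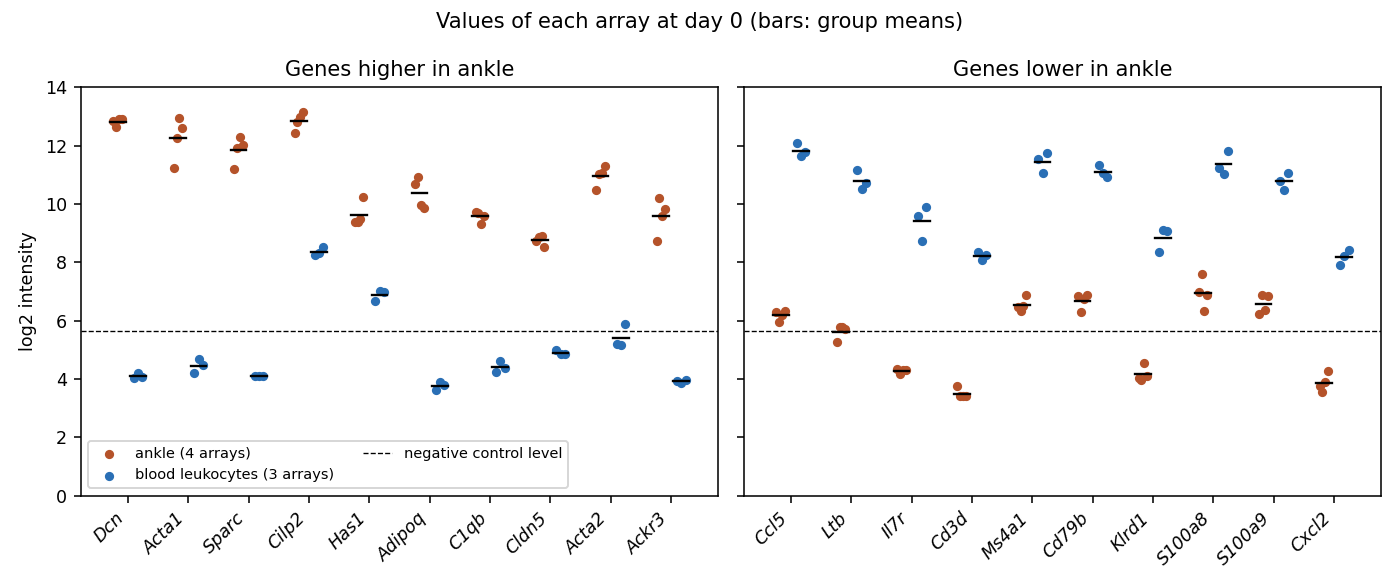
Log2 intensity of each ankle array (left of each pair, 4 arrays) and each blood array (right, 3 arrays) at day 0 for 10 genes higher and 10 genes lower in ankle, with bars at group means. The tissues do not overlap for any of the 20 genes.

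Fibroblasts of the synovial lining make hyaluronan and lubricate the joint. On a list of synovial fibroblast genes, 11 of 14 measured were higher in ankle and 0 lower (median 1.70). The list is not particular to lining cells, and which cells of the ankle made these transcripts was not tested. Has1, a hyaluronan synthase, measured 9.37, 9.36, 9.50 and 10.24 in ankle, against 6.67, 7.01 and 6.97 in blood (2.73 ± 0.23, 6.65-fold, adjusted p = 7.29e-06). Replicate 4 was the highest of the ankle arrays. The serine protease gene Htra1 differed by 5.16 ± 0.17, Gas6 (a ligand of TAM receptors) by 2.93 ± 0.17, Cd34 by 2.86 ± 0.20 and the platelet-derived growth factor receptor gene Pdgfrb by 1.51 ± 0.19, all with blood close to background. The other probe set of Cd34 differed by 0.77. Of 7 Wnt antagonists 5 were higher and 0 lower (median 0.76), with Sfrp4 at 2.07 ± 0.26 and Dkk3 at 1.94 ± 0.22. Growth factors and their binding proteins were higher in 20 of 30 and lower in 0 (median 1.18). Igfbp6, a binding protein of insulin-like growth factors, differed by 3.19 ± 0.20 (9.14-fold), Igfbp3 by 2.62 ± 0.24, and the transforming growth factor genes Tgfb2 and Tgfb3 by 2.40 ± 0.21 and 2.06 ± 0.15. Other probe sets of Igfbp3 and Tgfb3 differed by 0.26 and 0.36.

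Of 26 transcription factors that pattern the limb before birth, 16 were higher in adult ankle and 0 lower (median 0.55). Pitx1, which specifies the hind limb, measured 8.76, 8.17, 8.46 and 8.65 in ankle, against 6.58, 6.73 and 6.63 in blood (1.87 ± 0.17, adjusted p = 1.46e-05). Shox2, needed for growth of the upper limb bones, measured 8.66, 9.53, 8.44 and 8.55 in ankle, against 5.77, 6.25 and 6.38 in blood (2.66 ± 0.27, adjusted p = 2.77e-05), but its other probe set differed by 0.27. No ankle array overlapped with blood for either gene. Twist1, of limb mesenchyme, differed by 2.42 ± 0.26, Prrx2 by 1.51 ± 0.15, Msx1 by 1.47 ± 0.16 (2.76-fold) and Hoxc6 by 1.1 ± 0.11. Of the 26 genes, 12 were close to background in both tissues, Hoxc6 among them.

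Most measured genes of fat cells and of blood vessel endothelium were higher in ankle. Adiponectin (Adipoq), a hormone of fat cells, measured 10.68, 10.94, 9.97 and 9.86 in ankle, against 3.61, 3.90 and 3.80 in blood (6.59 ± 0.26, adjusted p = 4.59e-08). Car3, a carbonic anhydrase of fat and slow muscle, differed by 6.89 ± 0.21 and lipoprotein lipase (Lpl) by 4.10 ± 0.27, and 12 of 14 adipocyte genes were higher and 0 lower (median 1.34). Of 16 genes of blood endothelium 12 were higher and 1 lower (median 1.11). The tight junction gene Cldn5 measured 8.72, 8.86, 8.91 and 8.53 in ankle, against 5.0, 4.86 and 4.85 in blood (3.85 ± 0.15, adjusted p = 4.56e-08). The water channel gene Aqp1 differed by 4.4 ± 0.21 (its other probe set by 0.23), Ramp2 by 2.86 ± 0.21 and endoglin (Eng) by 2.49 ± 0.22 (5.62-fold). The lower member was Icam2 (-1.14 ± 0.21), an adhesion molecule that leukocytes and platelets also carry. Of 4 lymphatic genes 1 was higher, the hyaluronan receptor gene Lyve1 (3.70 ± 0.36). Smooth muscle and pericyte genes were higher in 6 of 7 (median 1.74), with Acta2, the smooth muscle actin, at 5.55 ± 0.24, Tagln at 3.17 ± 0.15 and the smooth muscle myosin gene Myh11 at 3.03 ± 0.16. Among 10 genes of Schwann cells and nerve, 4 were higher and 1 lower (median 0.33). Pmp22, a myelin protein of peripheral nerve that fibroblasts also make, differed by 6.88 ± 0.32, although its other probe set differed by 0.02, and S100b by 2.02 ± 0.15. Myelin basic protein (Mbp) was lower by this probe set (-2.05 ± 0.18), but a second probe set of the gene differed by 4.38, so its direction was not settled. Skin keratinocyte genes were higher in 4 of 17 (23.5%, near the 19.7% of all genes) and lower in 1 (median 0.10). Klf5 differed by 1.5 ± 0.21 and keratin 10 (Krt10) by 1.59 ± 0.41. Krt10 stood at 7.17 in ankle replicate 2 and at 5.16 to 5.51 in the other ankle arrays. The call of Krt10 was lost in a fit that left out 1 array, and its other probe set differed by 0.11.

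Genes of resident macrophages were higher in ankle. C1qb, a chain of complement C1q made by tissue macrophages, measured 9.72, 9.70, 9.30 and 9.57 in ankle, against 4.24, 4.61 and 4.39 in blood (5.16 ± 0.17, adjusted p = 1.41e-08), and its other probe set differed by 0.62. Stab1, a scavenger receptor of resident macrophages and sinus endothelium, differed by 3.63 ± 0.22, C1qa by 2.78 ± 0.21, Folr2 by 2.15 ± 0.16, C1qc by 2.10 ± 0.18 (4.27-fold) and the lysosomal protease gene Lgmn by 1.73 ± 0.22. Of 15 macrophage genes 9 were higher and 0 lower (median 1.00). Genes that osteoclasts share with other cells split. Ctsk, the collagen-cleaving cathepsin K, which fibroblasts also make, was higher by 4.82 ± 0.17, while Car2 (-2.0 ± 0.32), Acp5 (-0.80 ± 0.18, 1.74-fold lower) and Itgb3 (-0.44 ± 0.14, a call lost in a fit that left out 1 array) were lower, among 8 measured. Of 12 complement genes 3 were higher (25%, near the 19.7% of all genes) and 0 lower. Serping1, the C1 inhibitor, had the largest difference of the 12 at 5.88 ± 0.18. Proteases and their inhibitors were higher in 9 of 13 and lower in 0 (median 1.53), among them Ctsl (cathepsin L, 4.12 ± 0.21), Timp3 (5.01 ± 0.32), the stromelysin gene Mmp3 (2.79 ± 0.20) and the membrane protease gene Mmp14 (1.61 ± 0.17). Antioxidant enzymes were higher in 8 of 15 and lower in 0 (median 0.55), led by the extracellular glutathione peroxidase gene Gpx3 (3.49 ± 0.25). Of 11 mast cell genes 3 were higher (27.3%, against 19.7% of all genes) and 1 lower (9.1%, against 17.6%). The mast cell tryptase gene Tpsab1 differed by 0.55 ± 0.11 with both tissues close to background, and Hdc, the histidine decarboxylase also of neutrophils and basophils, was lower (-2.24 ± 0.15).

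**Figure D3:**
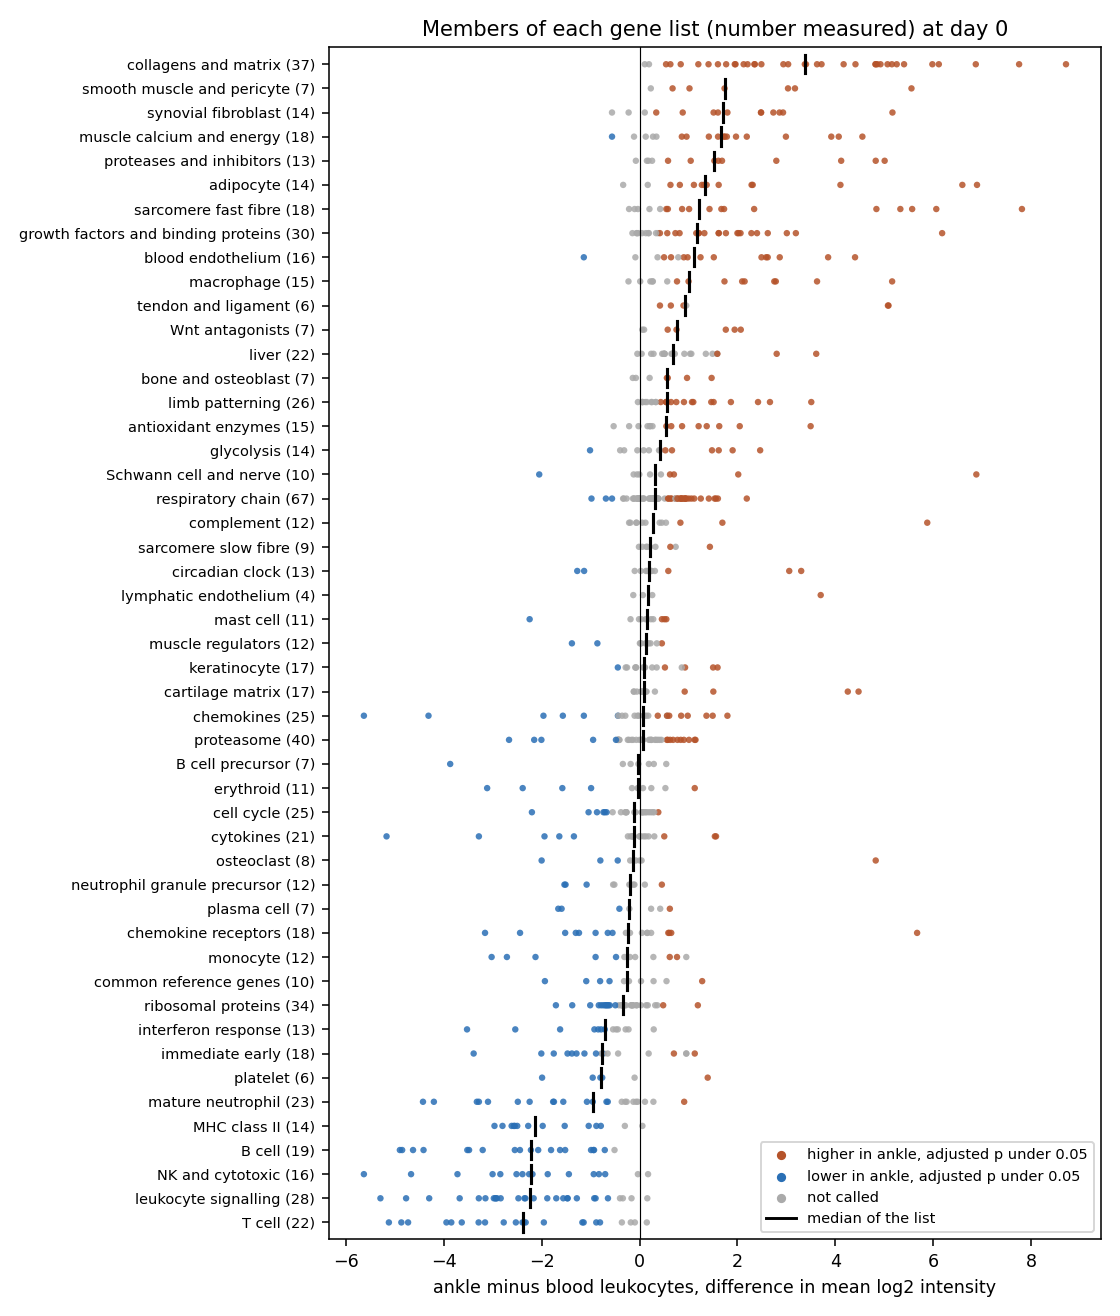
Difference between ankle and blood leukocytes in mean log2 intensity for the measured members of 49 gene lists (1 point per gene), ordered by the median of the list (black bar). The collagen and matrix list has a median of 3.38, the T cell list of -2.38.

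On the side of blood, lymphocyte genes led. The chemokine gene Ccl5, made by memory T cells and natural killer cells, measured 6.31, 5.96, 6.2 and 6.33 in ankle, against 12.07, 11.64 and 11.77 in blood (-5.63 ± 0.17, adjusted p = 1.17e-08). Il7r, the survival receptor of naive T cells, measured 4.35, 4.16, 4.31 and 4.30 in ankle, against 9.59, 8.73 and 9.88 in blood (-5.12 ± 0.24, adjusted p = 1.29e-07). Ankle values of both genes were tightly grouped and did not overlap with blood. Of 22 T cell genes 18 were lower and 0 higher (median -2.38). Cd8b1, of the CD8 co-receptor, differed by -4.86 ± 0.25, Cd3d of the T cell receptor complex by -4.73 ± 0.15 (its other probe set by 0.08), the costimulatory receptor gene Cd28 by -3.94 ± 0.14 and Ccr7, which guides naive T cells to lymph nodes, by -3.15 ± 0.13. Ankle was close to background for these 4. Cd4, named after its values were seen, stood at 7.06 to 7.41 in ankle and 7.27 to 7.57 in blood and was not called (-0.18 ± 0.15, adjusted p = 0.42).

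B cell genes were lower in 18 of 19 and higher in 0 (median -2.22). Ms4a1, which encodes CD20, measured 6.46, 6.31, 6.50 and 6.89 in ankle, against 11.53, 11.05 and 11.73 in blood (-4.89 ± 0.21, adjusted p = 6.6e-08). Cd79b, the signalling chain of the B cell receptor, measured 6.85, 6.30, 6.73 and 6.87 in ankle, against 11.32, 11.05 and 10.92 in blood (-4.41 ± 0.19, adjusted p = 6.88e-08). No ankle array of either gene overlapped with blood. The B cell kinase gene Blk differed by -4.85 ± 0.18, the coactivator gene Pou2af1 by -4.62 ± 0.19 (its other probe set by -1.27), the immunoglobulin variable gene Igkv6-23 by -5.31 ± 0.15 and the IgM heavy chain gene Ighm by -3.52 ± 0.19 (11.4-fold lower), whose other probe sets ranged from -4.5 to 0.23. Probe sets of immunoglobulin variable genes may share sequence with related genes, so Igkv6-23 may stand for several. Of 7 plasma cell genes 3 were lower and 1 higher, with Irf4 at -1.59 ± 0.15 and the IgA gene Igha at -1.66 ± 0.20 (its other probe sets at -0.26 to -0.18), while syndecan 1 (Sdc1), which epithelia and fibroblasts share, was higher by 0.62 ± 0.14. Natural killer and cytotoxic genes were lower in 14 of 16 and higher in 0 (median -2.22). The receptor gene Klrd1 differed by -4.67 ± 0.22, granzyme A (Gzma) by -3.72 ± 0.16, Klrg1 by -3.0 ± 0.17 and the protease gene Ctsw by -2.51 ± 0.15.

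Genes for antigen presentation by MHC class II were lower in 12 of 14 and higher in 0 (median -2.13). H2-Aa, an antigen-presenting chain, measured 9.31, 9.36, 8.94 and 8.80 in ankle, against 11.68, 12.13 and 11.88 in blood (-2.80 ± 0.19, 6.96-fold lower, adjusted p = 1.89e-06). The invariant chain gene Cd74 differed by -2.96 ± 0.18 (7.79-fold lower), H2-Eb1 by -2.61 ± 0.15 and H2-Ab1 by -2.57 ± 0.19. Ankle levels of these 4 genes lay above both background levels, so the differences are not bounds. Of 28 signalling genes shared by leukocytes 24 were lower and 0 higher (median -2.25). Cytip, which controls adhesion of lymphocytes, measured 6.55, 8.19, 7.1 and 7.48 in ankle, against 12.61, 12.73 and 12.53 in blood (-5.29 ± 0.32, adjusted p = 6.43e-07), and its other probe set differed by -5.30. Cd52 differed by -4.29 ± 0.17, the kinase gene Stk10 by -3.15 ± 0.18 (8.86-fold lower), the GTPase gene Rac2 by -2.94 ± 0.17 (7.68-fold lower) and Dock2, its activator, by -2.98 ± 0.17. Ptprc, which encodes CD45, the common antigen of leukocytes, measured 4.54, 5.25, 4.34 and 4.47 in ankle, against 9.79, 9.07 and 9.39 in blood (-4.77 ± 0.25, adjusted p = 2.24e-07), while its other probe sets differed by -0.62 to -0.06.

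Neutrophil genes were lower in ankle too. S100a8 and S100a9 encode the subunits of calprotectin, abundant in the neutrophil cytosol. S100a8 measured 6.98, 7.58, 6.33 and 6.89 in ankle, against 11.24, 11.04 and 11.82 in blood (-4.42 ± 0.29, 21.4-fold lower, adjusted p = 1.19e-06). S100a9 measured 6.22, 6.87, 6.36 and 6.83 in ankle, against 10.79, 10.48 and 11.04 in blood (-4.2 ± 0.21, adjusted p = 2.02e-07). Neither gene showed overlap between the tissues. Of 23 genes of mature neutrophils 14 were lower and 1 higher (median -0.95). The lectin receptor gene Clec4d differed by -3.32 ± 0.31, the cytokine gene Il1b by -3.28 ± 0.25 and the gelatinase gene Mmp9 by -3.09 ± 0.25, with ankle close to background. The higher member was Tnfaip2 (0.91 ± 0.17, 1.88-fold), which endothelium also makes. Monocyte genes went both ways, with 5 of 12 lower and 2 higher (median -0.25). Irf8, a transcription factor of monocytes, dendritic cells and B cells, differed by -3.02 ± 0.16 (8.11-fold lower) and Ms4a6c by -2.71 ± 0.19 (6.53-fold lower). Csf1r, the receptor for macrophage colony-stimulating factor, measured 9.56, 9.90, 9.28 and 9.25 in ankle, against 9.0, 8.66 and 8.55 in blood (0.77 ± 0.20, 1.70-fold, adjusted p = 0.0121). Cd14, the co-receptor for bacterial lipopolysaccharide, was also higher (0.62 ± 0.17, adjusted p = 0.0153). The calls of Csf1r and Cd14 were each lost in a fit that left out 1 array, and a further probe set of Csf1r differed by 0.00.

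Marrow precursors, red cells and platelets were looked for in both tissues. Of 12 genes of neutrophil granule precursors 3 were lower and 1 higher. Chil3 differed by -1.53 ± 0.27, Mmp8 by -1.51 ± 0.30 and Gfi1 by -1.08 ± 0.19, and the higher Ctsg (0.46 ± 0.12) was close to background in both tissues. Myb, a transcription factor of haematopoietic precursors, was the called member of 7 B cell precursor genes (-3.87 ± 0.21), although its other probe set differed by 0.12. Red cell genes were measured in both tissues. Haemoglobin alpha (Hba-a1) measured 12.38, 12.64, 12.74 and 13.05 in ankle, against 13.77, 13.52 and 13.79 in blood (-0.99 ± 0.19, 1.98-fold lower, adjusted p = 0.00231). Its blood values lay at or near the highest intensities of those arrays, and whether this compressed the difference was not tested. Bpgm (-3.11 ± 0.46), Alas2 (-2.39 ± 0.39) and Slc4a1 (-1.58 ± 0.34) were lower too and the ankyrin gene Ank1, also of muscle, was higher (1.13 ± 0.16), among 11 measured. Of 6 platelet genes 4 were lower, led by Nfe2 (-1.99 ± 0.15), and 1 was higher, Cavin2 (1.39 ± 0.43), which fat and endothelium share and whose call was lost in a fit that left out 1 array.

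The title of the series concerns CXCR2, the receptor that guides neutrophils along CXC chemokines. Cxcr2 measured 3.90, 3.68, 4.2 and 3.82 in ankle, against 4.79, 4.05 and 4.81 in blood, all below the negative control level, and the tissues overlapped (-0.65 ± 0.20, adjusted p = 0.0273). Its ligand gene Cxcl2 measured 3.74, 3.56, 3.89 and 4.26 in ankle, against 7.90, 8.21 and 8.41 in blood (-4.31 ± 0.20, adjusted p = 1.01e-07). The ligand gene Cxcl1 measured 6.07, 5.82, 4.79 and 7.35 in ankle, against 4.26, 4.88 and 4.4 in blood (1.49 ± 0.47, adjusted p = 0.0287). Ankle replicate 4 gave the highest Cxcl1 value and replicate 3 fell within the range of blood. Cxcl5 was close to background in both and not called (-0.29 ± 0.12, adjusted p = 0.0804). The calls of Cxcr2 and Cxcl1 were each lost in a fit that left out 1 array.

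Over all 25 chemokine genes 8 were higher (32%, against 19.7% of all genes), 6 lower (24%, against 17.6%) and 11 not called (median 0.08). The higher group included Cxcl12, a chemokine of stromal cells (1.79 ± 0.20), Ccl8 (1.37 ± 0.24, adjusted p = 0.00111) and the membrane-bound Cx3cl1 (0.85 ± 0.19). The lower group included, beside Ccl5 and Cxcl2, Ccl3 (-1.96 ± 0.16) and Ccl6 (-1.57 ± 0.23, 2.96-fold lower). Among 18 chemokine receptor genes 4 were higher (22.2%, near the 19.7% of all genes) and 8 lower (44.4%, against 17.6%). The 4 higher ones were the 4 atypical receptors measured, which bind chemokines without classical signalling. Ackr3 measured 8.72, 10.20, 9.60 and 9.83 in ankle, against 3.92, 3.86 and 3.97 in blood (5.67 ± 0.29, adjusted p = 2.24e-07). Ackr4 (0.65 ± 0.18), Ackr2 (0.61 ± 0.20) and Ackr1 (0.59 ± 0.15) differed far less, and each of these 3 calls was lost in a fit that left out 1 array. The lower receptors included Ccr7, Cxcr4 (-2.44 ± 0.20), Cxcr5 (-1.52 ± 0.18), Cxcr3 (-1.30 ± 0.21) and Ccr6 (-1.24 ± 0.15, 2.36-fold lower), which lymphocytes carry. Of 21 cytokine genes 3 were higher and 5 lower. Lymphotoxin beta (Ltb) measured 5.26, 5.78, 5.76 and 5.70 in ankle, against 11.15, 10.52 and 10.71 in blood (-5.17 ± 0.20, adjusted p = 4.04e-08). Il1rn, the antagonist of interleukin 1, differed by -1.94 ± 0.28 and Ifng by -1.64 ± 0.13. The growth factor gene of macrophages, Csf1, was higher in ankle (1.56 ± 0.19, 2.95-fold, adjusted p = 0.000109), as were Kitl (1.54 ± 0.30) and Il18 (0.51 ± 0.15), whose call was lost in a fit that left out 1 array.

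Of 13 clock genes 3 were higher and 2 lower in ankle (median 0.19), shares close to those over all genes. Dbp, a clock output factor, measured 9.04, 8.68, 8.64 and 8.75 in ankle, against 5.34, 5.47 and 5.62 in blood (3.3 ± 0.16, adjusted p = 1.32e-07). Nr1d1, which encodes the clock repressor REV-ERB alpha, measured 9.76, 8.33, 9.04 and 9.17 in ankle, against 5.96, 6.13 and 5.96 in blood (3.06 ± 0.28, adjusted p = 1.34e-05). Arntl, which encodes the activator BMAL1 and is repressed by REV-ERB alpha, went the other way, at 5.45, 5.18, 5.12 and 5.18 in ankle, against 6.63, 6.41 and 6.47 in blood (-1.27 ± 0.14, adjusted p = 6.86e-05). The other called members were Tef (0.59 ± 0.15), a call lost in a fit that left out 1 array, and Cry1 (-1.13 ± 0.29), whose other probe sets differed by 0.20 to 0.25. The hour of collection is not stated in the labels. Immediate early genes, which cells switch on within minutes of a stimulus, were lower in 9 of 18 and higher in 2 (median -0.77). Klf6 differed by -2.01 ± 0.24 (4.01-fold lower), Zfp36 by -1.47 ± 0.19 and Myc by -1.38 ± 0.17, while Ier3 (1.13 ± 0.23) and Egr2 (0.70 ± 0.17) were higher. The list mean was 7.263, 7.722, 7.432 and 8.351 in the ankle arrays, against 8.485, 8.338 and 8.372 in blood. Ankle replicate 4 thus overlapped with blood, so the difference depended on the array. Interferon response genes were lower in 7 of 13 and higher in 0 (median -0.71), led by Rsad2 (-3.52 ± 0.39) and Ifi47 (-2.54 ± 0.40). Of 25 cell cycle genes 6 were lower (24%, against 17.6% of all genes) and 1 higher (median -0.11). Hmgb2 differed by -2.20 ± 0.17 and Mcm2 by -0.71 ± 0.14.

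The housekeeping lists had medians between -0.33 and 0.41. Ribosomal protein genes were lower in 12 of 34 and higher in 2 (median -0.33), with Rpl13a at -1.71 ± 0.18 (3.27-fold lower) and Rps18 at -0.83 ± 0.15. Respiratory chain genes were higher in 25 of 67 and lower in 3 (median 0.32), among them Ndufa5 of complex I (1.6 ± 0.23, 3.03-fold) and Uqcrq of complex III (1.53 ± 0.19, 2.90-fold). Of 14 glycolysis genes 6 were higher and 1 lower (median 0.41). Triosephosphate isomerase (Tpi1) measured 9.99, 10.20, 10.64 and 10.28 in ankle, against 7.94, 7.70 and 7.80 in blood (2.46 ± 0.18, 5.52-fold, adjusted p = 2.82e-06), while the hexokinase gene Hk1 was lower (-1.01 ± 0.16, 2.01-fold). Proteasome genes (median 0.07) were higher in 10 of 40 (25%) and lower in 5 (12.5%), against 19.7% and 17.6% of all genes. The lower ones included the immunoproteasome subunits Psmb9 (-2.66 ± 0.20), Psmb8 (-2.15 ± 0.21, 4.44-fold lower) and Psmb10 (-0.95 ± 0.20, 1.93-fold lower). These subunits replace the constitutive catalytic subunits in immune cells. Psmb9 measured 7.01, 6.83, 6.62 and 6.32 in ankle, against 9.55, 9.07 and 9.46 in blood. Psmb6, a constitutive catalytic subunit, was higher by 0.63 ± 0.15, a call lost in a fit that left out 1 array. The constitutive catalytic subunits Psmb5 (0.19) and Psmb7 (0.03) were not called.

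Genes often used as references differed in part. Of 10 measured, 4 were lower in ankle and 1 higher, with B2m at -1.93 ± 0.35 (3.82-fold lower), Hprt at -1.09 ± 0.27 (2.13-fold lower), Tbp at -0.80 ± 0.15, Ywhaz at -0.61 ± 0.18 (a call lost in a fit that left out 1 array) and Gusb at 1.28 ± 0.26. Actb measured 11.32, 11.46, 11.38 and 11.48 in ankle, against 11.43, 11.29 and 11.42 in blood, a difference of 0.03 ± 0.15 with a 95% interval from -0.30 to 0.36. Rplp0 differed by -0.32 ± 0.16, Eef1a1 by -0.22 ± 0.25 and Polr2a by 0.55 ± 0.22, and none of these was called. The narrowest intervals above background belonged to genes such as Lss (lanosterol synthase, -0.04 ± 0.13), Pigs (0.04 ± 0.13) and Gatad2a (0.05 ± 0.13).

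The ankle arrays varied more among themselves than the blood arrays, with a median standard deviation of 0.261 against 0.148 over genes above background. Liver genes were among the most variable. Albumin (Alb) measured 8.95 in ankle replicate 1 and 5.19, 5.03 and 4.79 in the other ankle arrays, against 4.46 to 4.53 in blood. Serpina1c, an alpha-1 antitrypsin gene of liver, measured 10.79 in replicate 1 and 6.67 to 6.85 in the others, against 6.41 to 6.74 in blood. Of 22 liver genes 20 were highest in replicate 1 among the ankle arrays, the exceptions being Cyp2e1 and Fabp1. Their mean level was 7.43 in replicate 1 and 5.41 to 5.54 in the other ankle arrays, against 4.99 to 5.05 in blood. In replicate 1, 20 genes exceeded every other ankle array by at least 2 log2 units, 8 of them on the liver list. That list does not hold every liver gene. The alpha-1 antitrypsin genes Serpina1b, Serpina1c and Serpina1e were among the 20 but outside it. Only 3 genes of the liver list were called higher, Cyp2e1 (3.61 ± 0.24), Rbp4 (2.80 ± 0.44) and haptoglobin (Hp, 1.59 ± 0.33, 3.01-fold). They differed by 3.49, 2.37 and 1.45 without replicate 1. Cyp2e1 measured 10.59, 10.61, 9.89 and 9.82 in ankle, so replicate 1 did not stand apart as it did for Alb. Which cells made these 3 transcripts in ankle was not tested. The major urinary protein gene Mup3 was called as well (3.50 ± 0.80), with 11.41 in replicate 1 and 7.31 to 8.01 in the other ankle arrays, against 5.03 to 5.12 in blood. Without replicate 1, 277 of the 284 and 188 of the 207 genes were again called at 4-fold. Fos, an immediate early gene, was among the 8 genes with the largest ankle standard deviation above background, at 5.35, 7.09, 5.47 and 9.23 in ankle, against 10.44, 9.63 and 10.45 in blood (-3.39 ± 0.78, adjusted p = 0.00611), and its other probe set differed by 0.04. The hair keratin-associated gene Krtap6-2 stood at 8.67 in ankle replicate 2 and at 5.16 to 5.52 in the others. In blood the 8 most variable genes were each lowest in replicate 2, among them Bpgm (11.95, 10.30 and 12.00), Alas2 (12.54, 10.77 and 12.42), Ifi47 (8.78, 6.75 and 8.14) and Slfn2 (10.23, 8.49 and 10.23). Red cell and interferon-inducible genes were thus both lower in that sample, and the part of this in the differences above was not tested beyond leaving it out, after which 292 genes were higher and 229 lower at 4-fold.

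**Figure D4:**
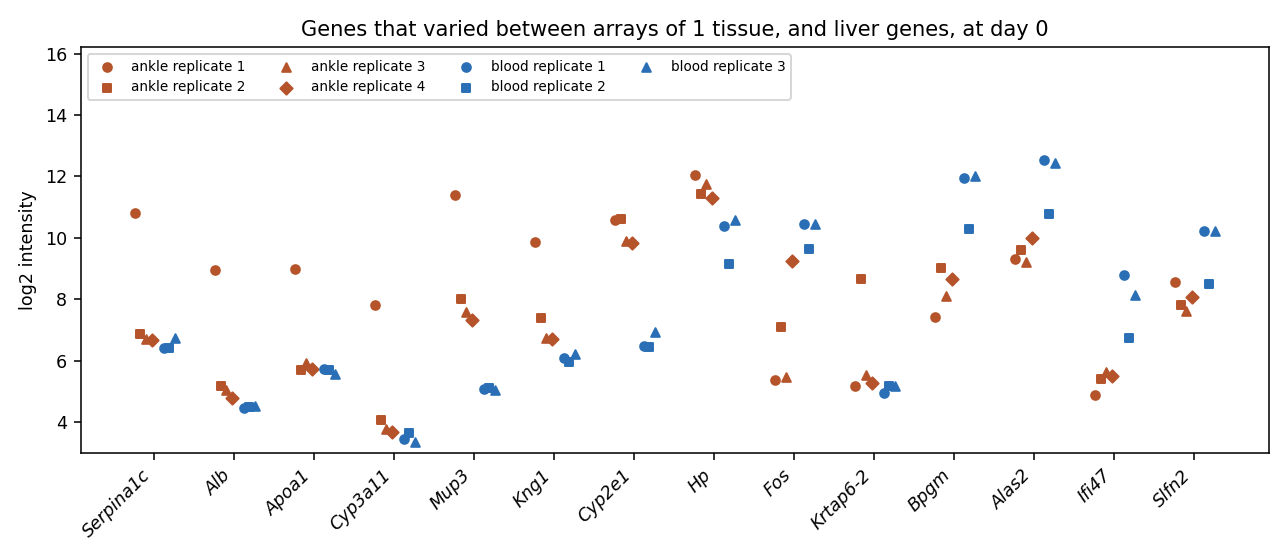
Log2 intensity of 14 genes in the 4 ankle arrays (left of each group) and the 3 blood arrays (right) at day 0. The liver genes at the left, other than Cyp2e1 and Hp, stand apart in ankle replicate 1 (Alb at 8.95). The red cell genes Bpgm and Alas2 are lowest in blood replicate 2.

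Arrays of later days, which did not enter the day 0 fit, gave the same contrast after serum. They did enter the choice of 1 probe set per gene, made by the mean over all 49 arrays. Days are counted from the first serum injection, so these arrays do not repeat the resting state. They comprised 2 ankle arrays on day 1, 4 on day 7 and 3 on each other day, and 3 blood arrays on each day but day 18, which had 2. Mean differences of the 284 higher genes kept their sign in all 284 on days 1, 3, 7, 12 and 18, and those of the 207 lower genes in 207 on days 1, 3 and 12 and in 206 on days 7 and 18. Over all genes positive at day 0 the share with the same sign was 61% to 81.9%, and over all genes negative at day 0 it was 80.9% to 86.3%. The exceptions were Mmp9, with -3.09 at day 0 and 0.17 at day 7, and Clec4d, with -3.32 at day 0 and 0.21 at day 18, both neutrophil genes. At least 4-fold differences remained in 256, 206, 184, 207 and 194 of the 284 on days 1, 3, 7, 12 and 18, and in 137, 118, 128, 110 and 105 of the 207. Because these sets were chosen for passing 4-fold at day 0, some loss in other arrays follows from the choice. Among all genes positive at day 0, 301, 236, 224, 270 and 243 were at least 4-fold higher on these days. Among all genes negative at day 0, 140, 121, 140, 122 and 111 were at least 4-fold lower. The median of the matrix list was 3.38 at day 0 and 2.73 to 3.19 later, and that of the T cell list -2.38 at day 0 and -2.32 to -1.56 later. On days 0, 1, 3, 7, 12 and 18 the adipocyte list had medians of 1.34, 1.67, 1.11, 0.66, 0.53 and 0.38. The tendon and ligament list had medians of 0.93, 0.56, 0.64, 2.04, 1.82 and 1.63 on these days. These changes of medians over days carry no test.

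**Figure D5:**
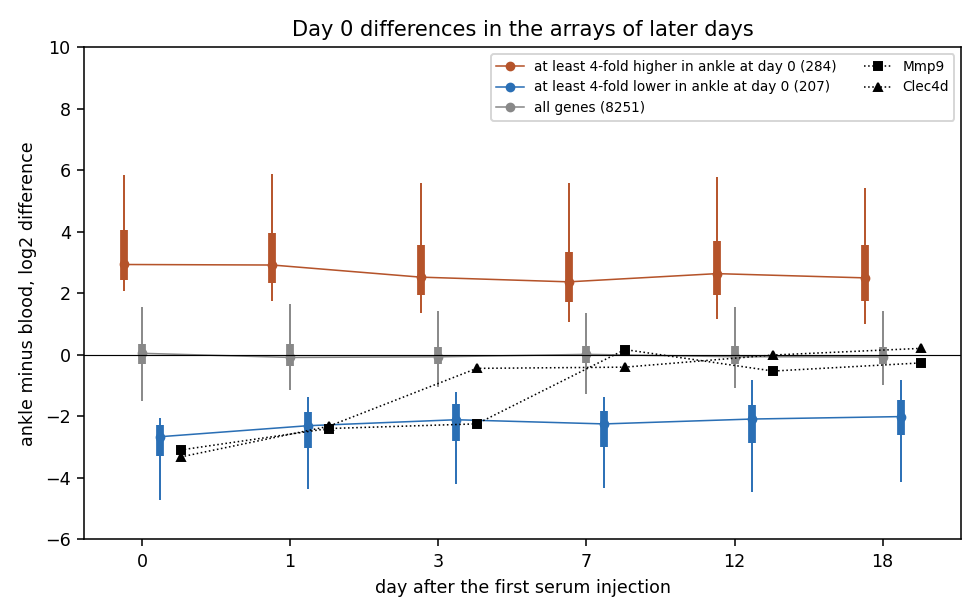
Difference between ankle and blood in mean log2 intensity on each day for the genes at least 4-fold higher (284) or lower (207) in ankle at day 0 and for all genes (points: median, thick bars: 25th to 75th percentile, thin bars: 5th to 95th percentile). The 2 sets stay apart on every day, and Mmp9 and Clec4d (dotted) cross 0.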

How the data were processed

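RNA of 4 ankle and 3 blood leukocyte samples was hybridised to Affymetrix MG-U74Av2 arrays. The authors deposited 1 table of linear intensities for 49 arrays, made with RMA per the submitters' processing notes, and log2 of those deposited intensities was used here. Of 12488 probe sets, 10833 had 1 gene symbol, 396 several, 1193 none and 66 were controls. Each of 8251 genes was represented by the probe set with the highest mean over all 49 arrays. Ankle and blood were compared with limma 3.58.1 in R 4.3.3 (lmFit, eBayes with an intensity trend) and Benjamini-Hochberg adjustment over all 8251 genes, at a threshold of 0.05. No filter on low values was applied. Named genes were drawn from the 12 with the largest difference in each direction, up to 6 called members of each list in its main direction and up to 4 in the other by smallest p, the liver and reference lists, CXCR2 and its ligands, the 8 most variable genes of each tissue and the 10 with the narrowest intervals. Col2a1 and Cd4 lie outside this rule. The members and the lists were chosen with earlier results of these data known. Replicate numbers were not treated as pairs. Deviations of same-numbered arrays correlated at -0.151, -0.160 and -0.008, but so few arrays cannot settle whether samples came from the same mice. No 2 arrays were identical. The code was tested on simulated data. Scaling, filters, probe set choice, array weights and left-out arrays were varied.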

Additional observations from a re-analysis of the deposited data

Results flagged for a closer look

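In 14 of the 212 genes named here, 1 of the 4 ankle arrays at day 0 stood apart from the other 3 by Dixon's ratio, and chance alone flags about 1 in 20 groups. Ankle replicate 1 was the high array for the liver genes Alb (8.95) and Serpina1c (10.79), for C1qa of macrophages (9.21), for the basement membrane gene Col4a1 (11.29) and for Cd3d, which stayed below the negative control level (3.75). The same array was the low one for the elongation factor gene Eef1a1 (11.45) and for Ltb (5.26). Ankle replicate 2 was high for the hair gene Krtap6-2 (8.67), for Ackr1 (7.83) and for Tbp (5.74), and low for Fabp1 (3.68). Ankle replicate 4 was high for Has1 (10.24), Pth1r (6.57) and Myb (3.91). Groups of 3 blood arrays are too small for this comparison.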

How the results depend on the processing

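Of the counts of genes, 2 settings moved any by more than 1.5 times. Array weights gave 2624 genes higher in ankle, and the beta-actin ratio as a covariate, chosen after seeing the data, gave 910 higher and 673 lower. Leaving out 1 array at a time gave 1227 to 2177 higher and 1132 to 1777 lower genes. At 4-fold it gave 271 to 297 higher and 195 to 244 lower genes. The 2177 and 1777 came from leaving out ankle replicate 2, which had the lowest array weight (0.184). Without ankle replicate 1 the counts were 1683 and 1460. With the replicate number as a block, 1299 genes were higher and 1167 lower, although it is not known whether the numbers pair the samples. Of the 198 called genes named here, 179 kept their call whichever array was left out.

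Among called genes the mean of all probe sets turned Mbp to 1.17 (adjusted p = 0.00299 in limma) and Cox8b to 0.0449. Some genes that were not called turned sign, and the cause was not tested. Centring turned Actb to -0.0124 and Pigs to -0.00437, and quantile normalization turned Pigs to -0.00795. The beta-actin covariate turned Alb to -1.14, Serpina1c to -1.35, Col2a1 to -0.436, Eef1a1 to 0.468 and Lss to 0.0466. Fabp1 was 0.987 with the mean of probe sets and 0.118 with array weights. With 1 array left out, the difference ranged from -0.0132 to 0.0611 for Actb, from -0.114 to 0.198 for Col2a1, from -0.314 to 0.026 for Eef1a1, from -0.125 to 0.139 for Fabp1 and from -0.0015 to 0.0882 for Gatad2a. Low signal limits the genes close to background, whose differences are bounds.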
